A study of Mus musculus with 15 samples.

Results

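The effect of short-term dietary restriction on the hypothalamus was followed in 2 of the 15 RNA-Seq libraries of the series, the hypothalamus of mice fed AL (ad libitum) and the hypothalamus of mice fed DR. Male C57BL/6 mice were fed AL until 4 months of age. The AL mice stayed on that diet and the DR mice then received 60% of the AL food intake, a restriction of 40%, for 1 month, so that both groups were 5 months of age. RNA of 5 mice was pooled for each library, and no gene was modified in either group. A further hypothalamus library, DR-AL, came from mice that were fed DR for 1 month and then AL until 7 months of age. It differs from the other libraries in both diet history and age, so it is no replicate of either. Its values are given beside theirs, and it was used to sort genes, not to test diet. Hippocampus libraries of the same diets served as the comparison region. Of 33603 loci in the deposited table, 23589 carried a gene name, and 19320 of these had at least 1 count over the 3 hypothalamus libraries and were tested. Counts on named loci summed to 29673910 in the AL library, 32745522 in the DR library and 31204690 in the DR-AL library.

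The hypothalamus holds small groups of neurons, the nuclei, that release peptides controlling feeding, water balance, the pituitary hormones, sleep and daily rhythm. In the arcuate nucleus, neurons that make Agrp and Npy promote feeding and neurons that make Pomc and Cartpt oppose it, and fasting is known to raise the former and lower the latter. Because each nucleus occupies only a part of the block of tissue that is cut out, the position of the cut sets how much of each nucleus, and of the tissue around it, enters the RNA. For this reason genes that mark a region were set apart from all other genes below.

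The label of the tissue was borne out by its markers. The peptide genes Avp, Oxt, Pmch, Pdyn, Pomc, Npy, Trh and Hcrt each had at least 679 counts in both libraries, and Nr5a1, a transcription factor of the ventromedial nucleus, had 1297 counts in the AL and 878 in the DR library against 0 and 0 in the hippocampus. The libraries also differed in ways that touch the results. Transcripts of colon epithelium were present at a summed 25.7 CPM, counts scaled to a common library total, in the AL library against 3.82 CPM in the DR and 3.4 CPM in the DR-AL library. Scd1, a fatty acid desaturase, was listed at 0 in the DR library (12276 counts in AL and 12053 in DR-AL), as it was in the DR libraries of all tissues, and no fold change is given for it. With 1 library per diet there was no replicate check. The Z test of the study's methods, used below, compares these libraries and not the diets, and its call covers counting error only. In bulk tissue, fewer cells of a type and less RNA per cell cannot be told apart.

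Among the 19320 genes, 1362 (7.05%) were called different between the libraries at a Benjamini-Hochberg adjusted p under 0.05 in the Z test, with the higher level at least 25% above the lower. Of these, 836 (4.33%) were higher and 526 (2.72%) lower in DR, and 466 (2.41%) reached a fold change of 2. Over the 15856 genes that averaged 10 counts or more the median log2 fold change was 0.01, a value that the scaling to a common total largely sets. When a coefficient of variation of 0.1 between pools was added in edgeR's exact test, 233 genes (1.21%) were called, all of them among the 1362. Where a gene is described below as also called with added variation, it is among these 233. With the coefficient of variation estimated from the 3 hypothalamus libraries without regard to diet or age (0.124), 164 genes were called, and the genes that lose their call there are named as such.

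Genes were sorted by where they were expressed, without use of the AL and DR hypothalamus libraries. Hippocampus-enriched genes were at least 4-fold higher in the mean of the hippocampus libraries than in the hypothalamus DR-AL library, hypothalamus-enriched genes the reverse, and peripheral genes were at least 20-fold higher in colon, fat or liver than in either brain region. Of 371 hippocampus-enriched genes, 89 were higher in DR and 9 were lower (26.4% called), and their median log2 fold change was 0.19 (95% interval over genes 0.13 to 0.26, with 310 genes of at least 10 counts). Of 794 hypothalamus-enriched genes, 78 were higher and 97 lower (22%), with a median of -0.06. Of 1690 peripheral genes, 88 were higher and 179 lower (15.8%). The remaining 16465 genes held 581 that were higher and 241 that were lower, which is 4.99% of them and 60.4% of all calls. The share called was thus above the 7.05% of all genes in the 3 classes with a place of expression and below it in the rest.

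The relation was graded. In genes expressed slightly lower in the hippocampus than in the hypothalamus (log2 ratio between -1 and 0, 7256 genes) 2.43% were called higher and 1.09% lower in DR. The share called higher was 4.42% at ratios of 0 to 1, 11.7% at 1 to 2, 26.1% at 2 to 4 and 48.6% in the 37 genes above 4, whose median log2 fold change was 0.71. At the other end, 32.5% of the 114 genes with a ratio under -4 were called lower and 17.5% higher, with a median of -0.22. Calls in both directions were more frequent away from a ratio of 0. At -2 to -1, 4.61% were called higher and 3.44% lower, and at -4 to -2 the shares were 8.8% and 9.09%. The share called lower went from 1.33% at ratios of 0 to 1 to 5.41% above 4. Because the DR-AL library set the ratios, a gene that was low in that library alone also counts as hippocampus-enriched. Over the 226 hippocampus-enriched genes of at least 10 CPM in the hippocampus, the median level in the hypothalamus was 14.7% of the hippocampus level in AL, against 17.2% in DR and 14.9% in DR-AL.

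**Figure D1:**
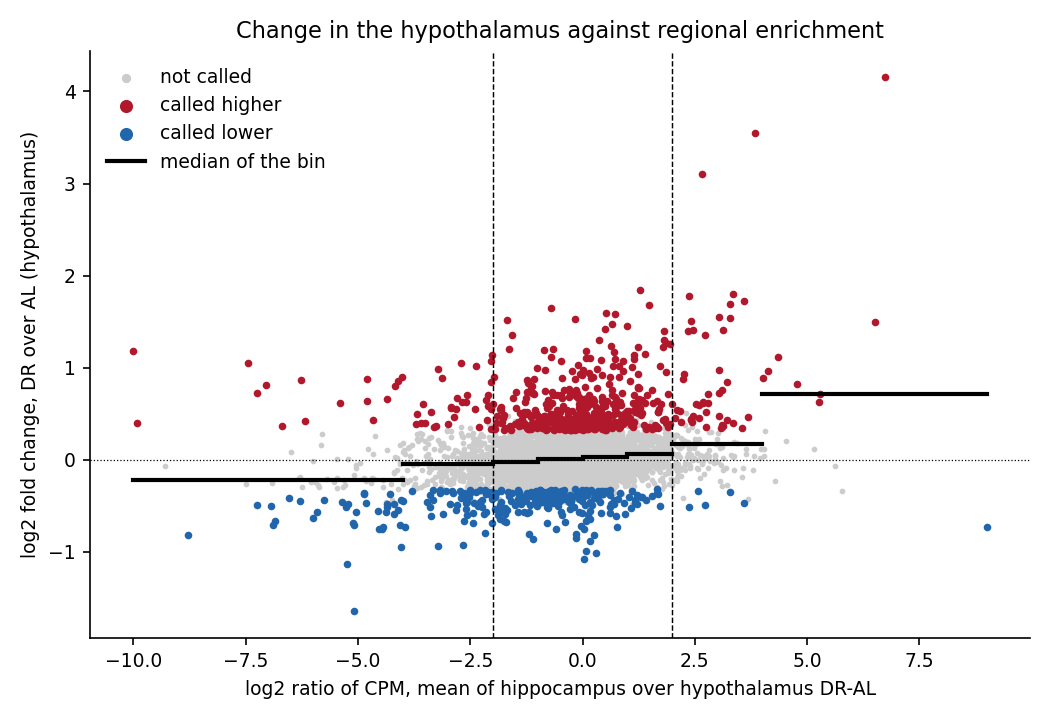
Each of 12588 points is a gene outside the peripheral class that averaged 100 counts or more in the hypothalamus AL and DR libraries. The x axis is the log2 ratio of its CPM in the hippocampus (mean of 3 libraries) over the hypothalamus DR-AL library, the y axis its log2 fold change of DR over AL in the hypothalamus, the dashed lines mark the 4-fold limits, and black bars are bin medians over genes of at least 10 counts, which run from -0.22 at the left to 0.71 at the right.

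The telencephalon is the forebrain tissue that surrounds the hypothalamus, and Slc17a7, a marker of its excitatory neurons, had the largest rise among the called genes that averaged 100 counts or more. In 12 such markers, 8 were higher and 2 lower in DR, and the median log2 fold change was 1.55. Members of this and all later lists were chosen with earlier results of these data known. Their shares called may reflect that choice, so setting them beside the share of all genes is a description only. Slc17a7, which encodes the vesicular glutamate transporter of cortical and hippocampal neurons (chr7:52419290-52437208, as positioned in the deposited table), was counted 58 times in AL, 1147 times in DR and 368 times in DR-AL. This was a log2 fold change of 4.15 with a counting interval of 3.78 to 4.57, and AL was the lowest of the 3 libraries. In CPM, Slc17a7 went from 1.95 to 35.0 in the hypothalamus, while the hippocampus had 1267, so that the difference came to 2.61% of the hippocampus level. Slc30a3, the synaptic vesicle zinc transporter, had 21, 277 and 152 counts in AL, DR and DR-AL, and Neurod2, a transcription factor of cortical neurons, had 9, 94 and 63. In both genes the AL library was again the lowest. Tbr1 (30, 121 and 261 counts) and Bhlhe22 (77, 283 and 229) were higher in DR as well. AL was the lowest library in both genes, and DR-AL was the highest for Tbr1. All 5 of these genes, and Emx1, were also called with added variation, and Emx1 lost its call at the estimated variation. The members did not move as a block, since Fezf2 (158 and 126 counts, log2 fold change -0.47) was lower in DR, and Nrgn, a postsynaptic protein at much higher counts (4819 and 4662), was not called. In the hippocampus, Slc17a7, Slc30a3, Neurod2, Tbr1 and Bhlhe22 had log2 fold changes between -0.18 and 0.25 and none was called.

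Lists of other tissue around the hypothalamus are to be read against the 7.05% of all genes that were called. Zic1 and Zic2, transcription factors of the septum and anterior midline, had 640 and 287 counts in AL, 2025 and 997 in DR, and 2696 and 873 after the return to AL. Their log2 fold changes were 1.52 and 1.65, and both were also called with added variation. In the list of the septum and basal forebrain cholinergic neurons 4 of 6 genes were higher and 1 was lower. The cholinergic genes in it disagreed among themselves, with the acetylcholine-synthesizing enzyme Chat at 32 and 80 counts and the vesicular transporter Slc18a3 at 80 and 51. In the mammillary region and ventral midbrain, 4 of 10 genes were higher and none lower. Foxb1, a transcription factor of that region, had 456 counts in AL against 832 in DR, with 571 in DR-AL (log2 fold change 0.72). The striatum held 1 higher and 0 lower of 14 genes, and the thalamus 0 and 1 of 9, shares near that of all genes. Thalamic markers such as Prkcd (342, 431 and 1480 counts) and Tcf7l2 (770, 675 and 1865) were highest in DR-AL. Choroid plexus markers in the hypothalamus held 1 higher and 2 lower genes of 14.

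**Figure D2:**
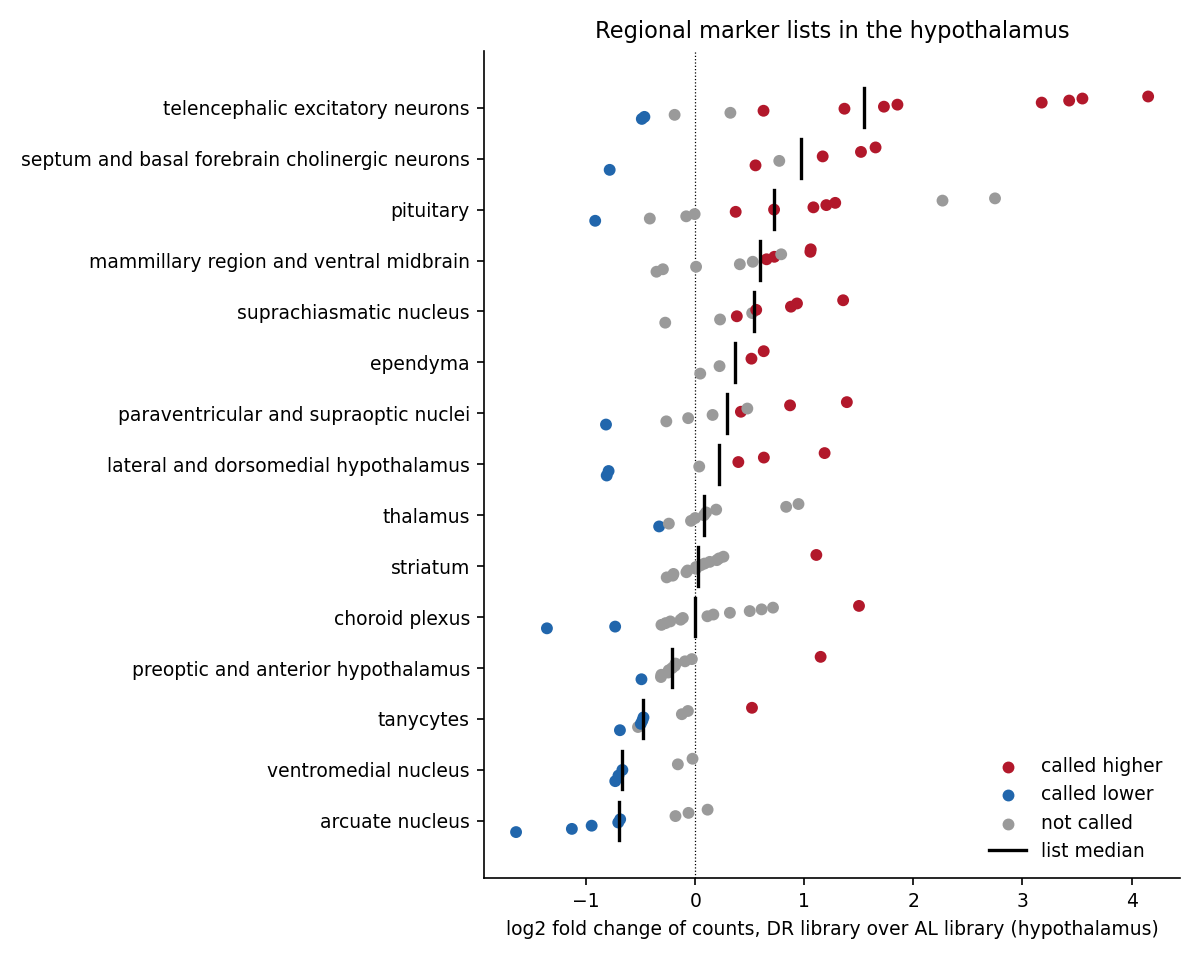
Log2 fold change of DR over AL in the hypothalamus for each tested member of 15 regional marker lists, ordered by the list median (black bar), with 1 point a gene and colours for the call of the Z test. The lists run from a median of -0.70 in the arcuate nucleus to 1.55 in telencephalic excitatory neurons, and several lists hold members on both sides of 0.

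Over all regional lists, 38 of 134 genes were higher and 23 lower (45.5% called against 7.05% of all genes). The choice of members with earlier results known may have raised this share. In the arcuate list 5 of 8 genes were lower and none higher, with a median log2 fold change of -0.70, in the ventromedial list 3 of 5 were lower, and among tanycyte markers 4 of 8 were lower and 1 was higher. With added variation 2 arcuate calls remained, and 0 in the ventromedial and tanycyte lists. Pomc, the precursor of the melanocortin peptides that suppress feeding (chr12:3954787-3960950), had 2980 counts in AL against 1052 in DR, with 708 in DR-AL, a log2 fold change of -1.64 with a counting interval of -1.75 to -1.54. Ghrh, the releasing hormone for growth hormone, had 511, 257 and 188 counts (-1.13). Both were also called with added variation. Cartpt, the appetite-suppressing peptide made with Pomc and in other nuclei, had 2658, 1797 and 1815 counts (-0.71), and Kiss1, which controls reproduction and shares its locus with Golt1a in the table, had 74, 42 and 26 (-0.95). Tbx3, a transcription factor of arcuate neurons and tanycytes, had 1343, 919 and 442 (-0.69). In these 5 genes AL was the highest of the 3 libraries, and DR-AL was the lowest in all but Cartpt.

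The feeding-promoting peptides of the same nucleus were not called between AL and DR. Agrp had 440 counts in AL and 525 in DR (log2 fold change 0.11, interval -0.07 to 0.30), and Npy had 2527 and 2458 (-0.18, interval -0.26 to -0.10, under the fold limit). Both were lower in DR-AL, at 165 and 790 counts. Tac2, the neurokinin made beside Kiss1, had 846, 894 and 1003 counts. In the ventromedial nucleus, which lies above the arcuate nucleus, 3 of the 5 listed genes were lower. Nr5a1 had 1297, 878 and 368 counts (-0.70), Fezf1 had 1503, 1043 and 550 (-0.67) and Sox14 had 243, 161 and 70 (-0.73). Adcyap1, a peptide gene that many other neurons express, was not called (3850, 4174 and 3178 counts), nor was Nkx2-2. Tanycytes are glial cells that line the floor of the ventricle, and 4 of their 8 markers were lower. Among these were Rax (295, 234 and 65 counts), Gpr50 (1844, 1260 and 583) and Frzb (482, 376 and 247). Dio2, the enzyme that activates thyroid hormone and is also made by astrocytes, was higher instead (455, 720 and 400 counts, log2 fold change 0.52), and it was higher in the hippocampus as well (0.48). How far the lower arcuate genes share the change of their neighbours was not tested.

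**Figure D3:**
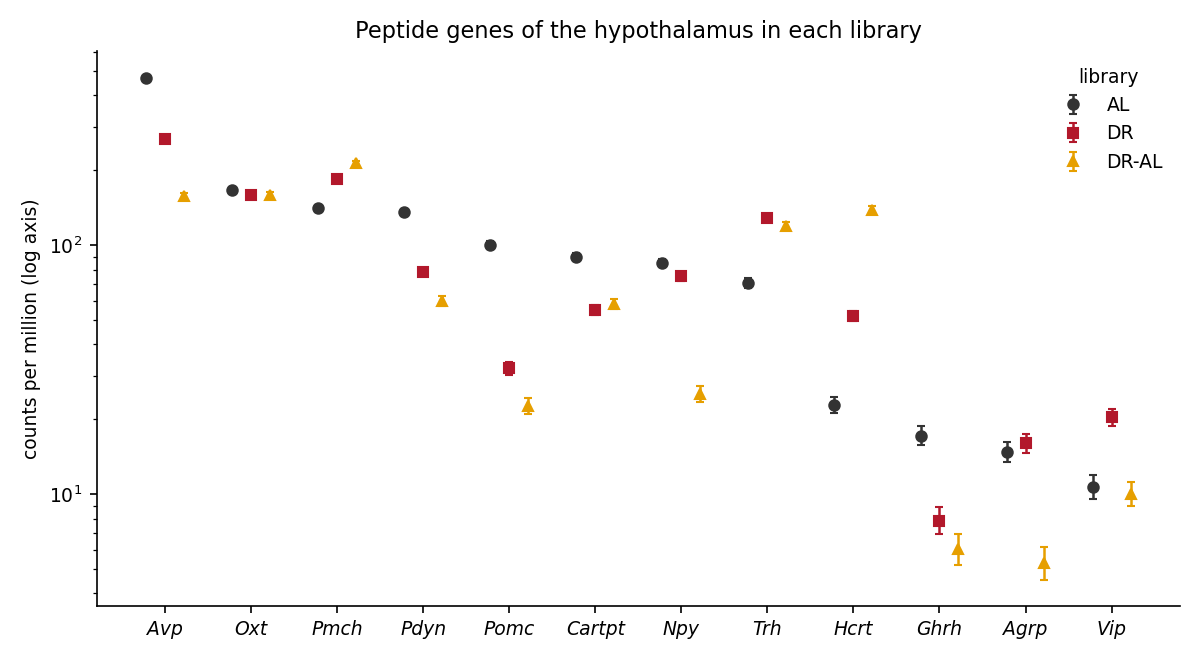
CPM of 12 peptide genes in the AL, DR and DR-AL hypothalamus libraries on a log axis, with bars for exact Poisson 95% intervals of the counts. Pomc, Cartpt, Ghrh, Avp, Pdyn and Npy were highest in AL (Npy was under the fold limit between AL and DR), Hcrt, Pmch and Trh were lower in AL than in the other libraries, and Oxt differed least. CPM are not per length, so heights are to be read within a gene.

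In the paraventricular and supraoptic nuclei, which send vasopressin and oxytocin to the pituitary and release the hormones that drive thyroid and adrenal axes, members went both ways. Avp (chr2:130406356-130408568) had 13982 counts in AL against 8745 in DR, with 4920 in DR-AL, a log2 fold change of -0.82 that was also called with added variation but not at the estimated variation. Oxt, made by neighbouring cells of the same nuclei, had 4960, 5230 and 4994 counts and was not called (-0.07). Trh, the releasing hormone of the thyroid axis (chr6:92192055-92194642), was higher, at 2098, 4228 and 3739 counts (0.87, also called with added variation but not at the estimated variation). Sim1, the transcription factor that forms this nucleus, had 320, 472 and 438 counts (0.42), and the stress peptide Ucn3 had 17, 50 and 108. Crh, the peptide that starts the adrenal stress response, had 50 and 77 counts (0.48) and was not called. Avp thus went against Trh and Sim1 within the same list.

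In the lateral and dorsomedial hypothalamus, Hcrt, the orexin precursor that promotes wakefulness and feeding (chr11:100623006-100624245), had 679 counts in AL against 1705 in DR, with 4346 in DR-AL. The log2 fold change of Hcrt was 1.19 with an interval of 1.06 to 1.32, and it was also called with added variation. Pmch, the melanin-concentrating hormone of neighbouring neurons, had 4179, 6062 and 6661 counts (0.39), and Lhx9, a transcription factor linked to orexin neurons, had 69, 118 and 237 (0.63). In all 3 genes AL was the lowest and DR-AL the highest library. Pdyn, the dynorphin precursor, which orexin neurons also make and which many other hypothalamic neurons express, went the other way, at 4026, 2560 and 1865 counts (-0.80, also called with added variation but not at the estimated variation). Npvf of the dorsomedial nucleus had 107, 67 and 91 counts.

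In the suprachiasmatic nucleus, the clock of the brain, 5 of 8 markers were higher and none lower, against 4.33% and 2.72% of all genes. Vip, the peptide that couples the clock neurons, had 317 counts in AL against 668 in DR, with 314 in DR-AL (0.93), and Nms had 33, 94 and 56 (1.36). Lhx1, a transcription factor of the nucleus, had 285, 578 and 443 (0.88). These 3 were also called with added variation, and of the 5 calls Nms alone remained at the estimated variation. Rgs16 (686, 1670 and 1225 counts, log2 fold change 1.14) and the Vip receptor Vipr2 (137, 301 and 204, 0.99), both strongly expressed in this nucleus, were also higher. Among called genes that averaged 100 counts or more, both were in the 10 largest rises of the hypothalamus-enriched class. Six6, a factor expressed in this nucleus and in the ventral hypothalamus, was not called (609, 555 and 240). In the preoptic and anterior hypothalamus 9 of 11 genes were not called, among them Gal and Gnrh1, with Moxd1 higher (88 and 216 counts) and Irs4 lower (7823 and 6130). Among all genes 7.05% were called.

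Markers of tissue outside the brain separated the AL and DR libraries further. All 7 genes of the meninges and fibroblasts, the membranes that cover the brain surface, were higher in DR, against 4.33% of all genes, and their summed level was 145 CPM in AL, 329 CPM in DR and 71.3 CPM in DR-AL. With added variation 4 of these calls remained, and 3 at the estimated variation. Igf2, a growth factor of the meninges and choroid plexus and the most abundant of the 7 per length, had 1977, 5792 and 866 counts (1.41). Ogn had 284, 894 and 73 and Slc6a13 had 248, 748 and 141, while the matrix gene Col1a1 differed least (283, 428 and 168 counts, log2 fold change 0.45). In the hippocampus, 2 of the 7 were higher and Igf2 was lower. Ptgds, the prostaglandin D synthase of meninges and choroid plexus, which was chosen after its values were seen, had 15191, 39392 and 10998 counts (1.23). Among the largest rises of the hippocampus-enriched class in genes that averaged 100 counts or more, Fmod (463, 1756 and 105 counts), Osr1 (52, 187 and 6), Slc22a6 (163, 526 and 20) and Slc13a4 (324, 1040 and 66) were highest in DR and lowest in DR-AL. This order is largely set by the choice of these genes, since the class requires a low level in DR-AL and the genes were taken for their rise in DR.

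Acta2, Tagln and Myh11, genes of smooth muscle, are in no list. They are named because they were among the 10 largest rises of their classes in called genes that averaged 100 counts or more. Acta2 had 310 counts in AL against 916 in DR, with 414 in DR-AL (1.42), Tagln had 167, 513 and 189 (1.47) and Myh11 had 268, 748 and 385 (1.34). AL was the lowest library in all 3. Of 8 endothelial markers 1 was higher, a share near the 7.05% of all genes called. In the pituitary list, which marks the gland below the hypothalamus, 5 of 11 genes were higher and 1 lower, 2 were at 0 in AL, and the summed level was 25.2 CPM in AL against 33.0 in DR and 5.51 in DR-AL. With added variation 2 higher and 0 lower calls remained, and at the estimated variation 1 and 0. Gh had 88, 224 and 18 counts, Prl had 31, 84 and 35, and Cga, the common subunit of the glycoprotein hormones, had 253, 361 and 27, while Tbx19 of the Pomc-producing cells of the gland had 122, 71 and 23. Gh and Tbx19 thus went opposite ways. The gland also makes Pomc, for which Tbx19 is a regulator, and its part in the Pomc counts was not tested.

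Colon epithelium genes were lower in DR in 8 of 9 cases, against 2.72% of all genes. Lypd8 had 278 counts in AL against 14 in DR, with 10 in DR-AL, and Zg16 had 108, 5 and 6. The AL library was thus apart from both others. Without the peripheral class, which holds the colon epithelium genes, 1095 calls remain among 17630 genes, 748 higher and 347 lower. At a fold change of 2, 232 higher and 57 lower genes remain, against 259 and 207 over all genes. The peripheral class thus held 150 of the 207 falls at that fold change. Of 5 red blood cell genes 3 were lower and the other 2, at 8 counts or fewer in each library, were not called. Their summed level, most of it from the globin loci in the list and the rest mainly from Alas2, the heme synthesis enzyme of red cells, was 82.4 CPM in AL, 42.5 CPM in DR and 27.0 CPM in DR-AL. The locus of Hba-a1 and Hba-a2 had 1504, 837 and 518 counts, and its log2 fold change of -0.99 stood beside -0.99 in the hippocampus. The globin genes are near-identical copies whose reads may be split between loci.

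**Figure D4:**
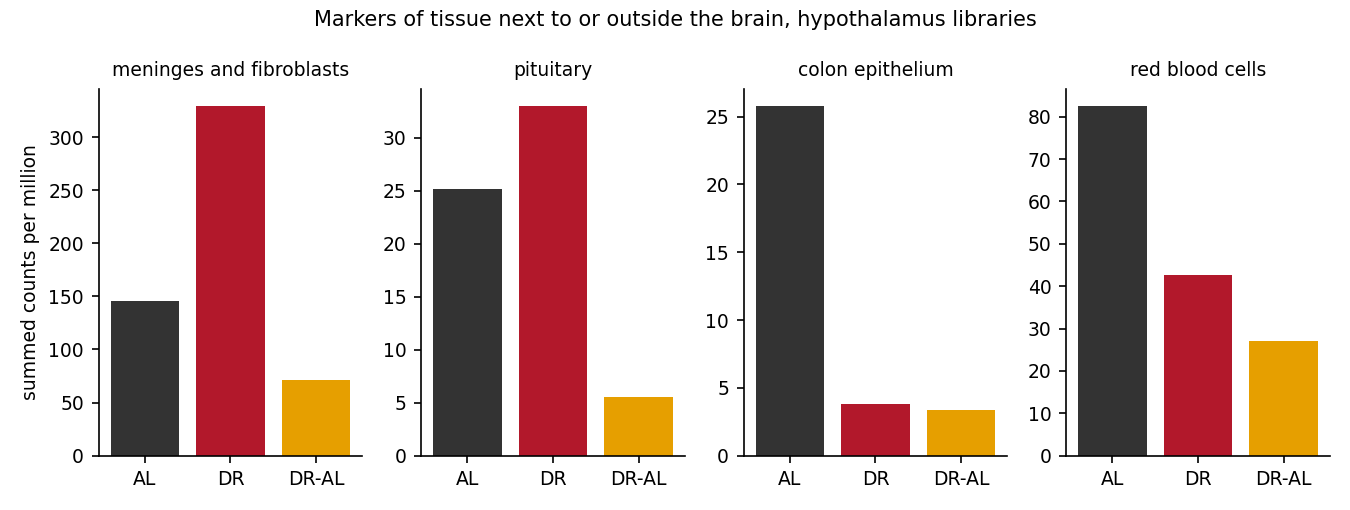
Summed CPM of 4 marker lists in the AL, DR and DR-AL hypothalamus libraries, on separate linear axes that start at 0. Meningeal and pituitary markers were highest in DR, and colon epithelium and red blood cell markers were highest in AL.

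In the main cell classes of the brain, calls are to be read against the 7.05% of all genes. None of 6 general neuronal, 3 GABA neuron and 8 astrocyte genes was called, with medians of 0.04, 0.28 and 0.01. Among the 3 GABA genes, Gad2 had the highest log2 fold change at 0.32, at the edge of the fold limit. Of 11 oligodendrocyte genes 2 were higher, Ermn and Ugt8a, with log2 fold changes of 0.42 and 0.44. Microglia held 3 lower genes of 9, the chemokine receptor Cx3cr1 (1199 and 1044 counts, -0.34), the complement gene C1qc (-0.34) and Trem2 (-0.39), close to the fold limit. Of 4 genes of oligodendrocyte precursors 1 was lower, the proteoglycan Cspg4 (1207 and 1038 counts, -0.36). None of these 6 calls remained with added variation. In the hippocampus these 3 microglial genes had log2 fold changes between -0.21 and -0.11 and were not called.

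Genes outside the regional classes and marker lists were then examined. Of 16359 such genes, 561 were higher and 232 lower in DR (4.85%). This leaves out list members such as Zic1 and Zic2, which the ratio alone puts in the remaining class of 16465 genes. Of the 4 globin loci called lower, 2 are list members and left out, while a further locus named Hba-a1 and Hba-a2 (941, 490 and 316 counts) and Beta-s (4287, 2569 and 1750) are still among the 16359. The class of 16465 genes also holds Acta2 and Tagln. With them, Zic1, Zic2, Zic5 (73, 233 and 199 counts) and Slc6a13 were among its 10 largest rises in genes with enough counts to be named. The others were Meis2, a transcription factor (105, 418 and 1070 counts), and Ctgf, a secreted matrix protein (249, 882 and 225 counts). Also among them were Spp1, the secreted protein osteopontin (218, 721 and 207), and Scn4b, a sodium channel subunit (139, 465 and 903). A gene in no regional class or list may still differ between regions. Meis2 had a log2 ratio of hippocampus over hypothalamus of 1.28, under the 4-fold limit. The part of regional tissue in these rises was not tested. Corin (162, 98 and 43 counts) was among the falls of the same class, after the globin loci.

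The response lists, of activity, clock, hormone, feeding receptor, stress and lipid genes, held 30 higher and 7 lower genes of 120 (30.8% called, against 7.05% of all genes). These lists too were chosen with earlier results of these data known. They are not free of regional genes, since Mc3r, Ghsr and Hcrtr1 are hypothalamus-enriched, and 5 of the 7 lower genes are in the receptor and growth hormone lists. The list with the most calls was that of the immediate early genes, transcription factors and effectors that neurons switch on within minutes of activity. Of 15 members, 9 were higher in DR, against 4.33% of all genes, and none was lower, and the median log2 fold change was 0.53. Fosb had 157 counts in AL against 371 in DR, with 255 in DR-AL (1.10), Nr4a3 had 278, 787 and 481 (1.36), Egr3 had 185, 444 and 205 (1.12) and Fosl2 had 636, 1204 and 843 (0.78). DR was the highest of the 3 libraries in each, and these 4 were also called with added variation. Fosl2 lost its call at the estimated variation. Arc, which acts at synapses, had 356, 664 and 531 counts (0.76), Egr1 had 1468, 2390 and 1836 (0.56), Fos had 620, 990 and 791 (0.53) and Nr4a1 had 633, 941 and 564 (0.43). Npas4, a factor induced by neuronal activity alone, was not called (716, 739 and 629 counts), nor were Junb, Dusp1 and Btg2.

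Of the 15 genes, Arc, Egr2, Egr3, Egr4 and Nr4a3 belong to the hippocampus-enriched class, and 4 of these 5 were higher. The other 10 belong to no regional class, and 5 of them were higher (Egr1, Fos, Fosb, Fosl2 and Nr4a1). Set against the hippocampus level of the same gene, the difference between DR and AL in the hypothalamus was 5.66% for Arc, 14.3% for Nr4a3, 44.5% for Fosb and 53.4% for Fos, against 2.61% for Slc17a7 and 10.9% for Slc30a3. This share does not set the immediate early genes apart from regional genes, since it was 121% for Zic2 and 149.8% for Zic1, both of the septum list. In the hippocampus 9 of the 15 were higher too and none was lower, against 256 (1.36%) of 18804 genes called higher there. Fosb had 326 and 527 counts in the hippocampus (1.07) and Fosl2 had 1965 and 2440 (0.69), beside 1.10 and 0.78 in the hypothalamus. Egr3 (0.29) and Egr1 (0.13) were not called there, and Npas4 was called higher in the hippocampus (0.45) but not in the hypothalamus. Hypothalamus and hippocampus were taken from the same pools of mice and are not independent.

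Many immediate early genes are known targets of CREB, which binds the cAMP response element, written TGACGTCA, or its core TGACG. In the 250 bases before the start of transcription, searched on both strands in the RefSeq promoters of GRCm38.p6, the core was present in 10 of the 11 immediate early genes that have an entry and in 19.8% of all 27025 genes. The full element, which contains the core, was present in 2 of the 11, Btg2 and Dusp1, and in 1.77% of all genes. Neither gene was called in the hypothalamus, and the core is also in Npas4, Junb and Egr2, which were not called. Fosl2, which was called higher, held no core. The promoters of 4 members that were higher in DR are shown 5′ to 3′ on the strand of the gene, to let the number and place of the cores be seen, with the core or its reverse complement CGTCA in capitals. They lie at chr7:19310046-19310295 on the minus strand (Fosb), chr4:48045055-48045304 on the plus strand (Nr4a3), chr15:101266596-101266845 on the plus strand (Nr4a1) and chr12:85473640-85473889 on the plus strand (Fos).
Fosb: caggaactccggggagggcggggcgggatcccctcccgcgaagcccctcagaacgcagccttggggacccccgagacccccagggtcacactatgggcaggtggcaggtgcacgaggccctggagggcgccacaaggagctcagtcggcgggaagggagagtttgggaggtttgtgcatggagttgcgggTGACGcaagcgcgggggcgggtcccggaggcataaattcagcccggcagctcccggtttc
Nr4a3: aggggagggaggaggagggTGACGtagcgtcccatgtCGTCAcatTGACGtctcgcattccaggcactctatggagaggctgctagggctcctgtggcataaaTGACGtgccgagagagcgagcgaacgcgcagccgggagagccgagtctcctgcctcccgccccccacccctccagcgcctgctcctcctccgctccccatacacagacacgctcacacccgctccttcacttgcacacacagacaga
Nr4a1: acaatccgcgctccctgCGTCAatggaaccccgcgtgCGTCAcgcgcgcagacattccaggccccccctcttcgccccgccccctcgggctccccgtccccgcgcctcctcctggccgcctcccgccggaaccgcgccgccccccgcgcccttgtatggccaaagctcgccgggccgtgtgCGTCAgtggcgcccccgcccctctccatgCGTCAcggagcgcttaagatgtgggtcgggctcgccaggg
Fos: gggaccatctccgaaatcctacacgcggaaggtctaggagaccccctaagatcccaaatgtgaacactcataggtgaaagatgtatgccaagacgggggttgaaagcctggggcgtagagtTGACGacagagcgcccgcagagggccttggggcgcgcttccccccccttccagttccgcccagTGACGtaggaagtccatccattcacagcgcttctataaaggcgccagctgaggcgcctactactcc
Nr4a3 and Nr4a1 hold 4 cores each, Fos 2 and Fosb 1. A match describes these letters only and shows no binding.

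**Figure D5:**
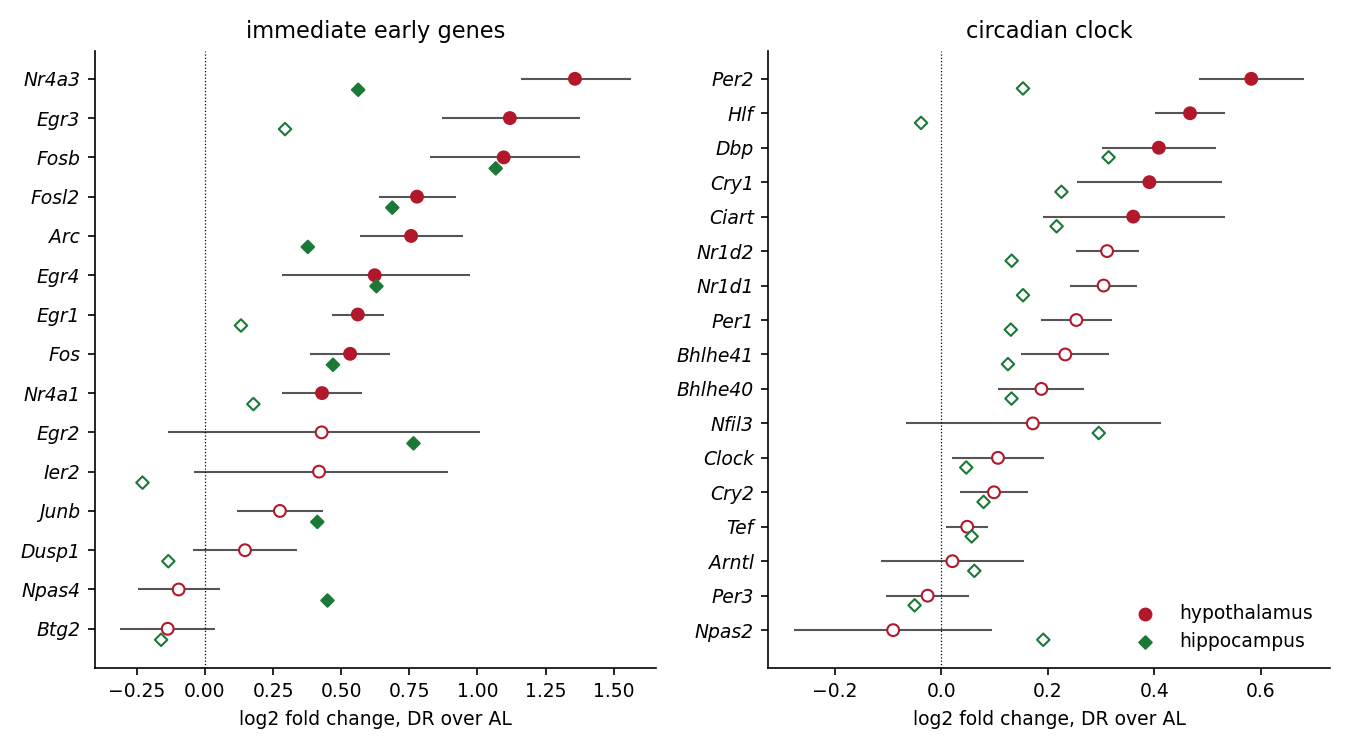
Log2 fold change of DR over AL for the immediate early genes (left) and the circadian clock genes (right), ordered by the value in the hypothalamus (red circles, with 95% counting intervals) beside the hippocampus (green diamonds), with filled symbols for genes called higher in the Z test. In the hypothalamus 9 of 15 immediate early genes and 5 of 17 clock genes were called, and in the hippocampus 9 and 0.

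Clock genes encode the transcriptional loop that times the day in nearly every cell. Of 17 members 5 were higher in DR and none lower, with a median of 0.23, and all 17 fall outside the regional classes. The share higher in all genes was 4.33%, and none of the 5 clock calls remained at a fold change of 2 or with added variation. Per2, a repressor of the loop, had 1331 counts in AL against 2199 in DR, with 1506 in DR-AL (0.58), Cry1 had 745, 1078 and 863 (0.39), and the output genes Dbp and Hlf had 1209, 1771 and 930 (0.41) and 3066, 4677 and 3387 (0.47). Ciart, named Gm129 in the table, had 482, 683 and 330 (0.36). DR was the highest library in all 5. The activators Arntl (0.02), Clock (0.11) and Npas2 (-0.09) were not called. In the hippocampus none of the 17 was called, and the median was 0.13. Suprachiasmatic markers were higher in the same library, and their part in the clock result was not tested. The E-box CACGTG, searched as above, was present in 5 of 15 clock genes with an entry and in 6.86% of all genes.

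Glucocorticoids are known to rise in restricted mice and act on many brain cells. Of 13 target genes, 5 were higher and 1 was lower, against 4.33% and 2.72% of all genes. No call remained at a fold change of 2 or with added variation. Zbtb16 had 1190, 2113 and 1648 counts in AL, DR and DR-AL (0.69), the kinase Sgk1 had 2474, 4120 and 5435 (0.59), Pdk4 had 302, 469 and 530 (0.49), Errfi1 had 952, 1425 and 1231 (0.44) and Tsc22d3 had 2869, 4245 and 4031 (0.42). The metallothionein Mt1 was lower (5019, 4204 and 4773, -0.40), and it was lower in the hippocampus too (-0.41). Fkbp5, a widely used marker of glucocorticoid action, reached 0.22 (1576 and 2020 counts) and was not called. Sgk1 is also expressed strongly by oligodendrocytes, whose list had a median of 0.13 here.

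Receptors for feeding signals and related genes held 5 calls of 17, against 7.05% of all genes. None of these calls remained at a fold change of 2 or with added variation. The serotonin receptor Htr2c (2001, 3109 and 3891 counts, 0.49) and the growth factor Bdnf (572, 844 and 833, 0.42) were higher. The melanocortin receptor Mc3r (559, 410 and 245, -0.59), the Npy receptor Npy5r (285, 208 and 197, -0.60) and the incretin receptor Glp1r (807, 600 and 489, -0.57) were lower. The leptin receptor Lepr (-0.20), the ghrelin receptor Ghsr (-0.24) and the melanocortin receptor Mc4r (0.15) were not called. In the growth hormone and IGF axis 2 of 8 genes were higher and 2 lower, against 4.33% and 2.72% of all genes. Somatostatin (Sst, 6396, 5108 and 3979 counts, -0.47) and the growth hormone receptor Ghr (1444, 1149 and 931, -0.47) were lower. Igf1 (108, 164 and 211, 0.46) was higher, as was the binding protein Igfbp2 (232, 738 and 130, 1.53), which the meninges also make.

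The remaining response lists are to be read against all genes, of which 7.05% were called, 4.33% higher and 2.72% lower. Of 9 cytosolic heat shock genes, 3 were higher, with Hspa1b at 94, 234 and 173 counts (1.17), the small chaperone Hspb1 at 116, 235 and 164 (0.87) and the co-chaperone Dnajb1 at 1640, 2414 and 2100 (0.42). Hsph1 had 9262 and 10737 counts (0.07) and was not called, and the reads of Hspa1b may be split with its near-identical copy Hspa1a (0.24). Of 13 cholesterol genes tested 2 were higher, Idi1 (0.32) and Cyp51 (0.34), both enzymes of sterol synthesis, and the median of the list was 0.11 against 0.01 for all genes. With DESeq size factors or TMM factors 1 of these calls remained. Hmgcs1, a further enzyme of the pathway, was listed at 0 in all 15 libraries. In the endoplasmic reticulum list 1 of 14 genes was called (Creld2, 0.33), a share near that of all genes, and the call was lost with either of these scalings. In the interferon list none of 9 was called. Of 5 thyroid hormone genes, the receptor Thrb was lower (1567, 1309 and 919 counts, -0.40) and Dio3, which inactivates the hormone, was higher at low counts (8, 30 and 12).

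The hippocampus of the same pools was set beside these results. There, 758 of 18804 genes (4.03%) were called, 256 (1.36%) higher and 502 (2.67%) lower. Of the 1362 genes called in the hypothalamus, 121 were called in the same direction in the hippocampus and 34 in the opposite direction. The first set held immediate early genes, Mt1, the globins, Idi1 and Cyp51, which differed in like direction in both regions. Choroid plexus genes were lower in the hippocampus in 14 of 14 cases, among them Ttr, the thyroid hormone carrier (109059 and 51236 counts, -0.71), whereas in the hypothalamus Ttr had 124 and 82 counts (-0.74) and 3 of the 14 genes of the list were called.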

How the data were processed

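Strand-specific libraries of rRNA-depleted RNA were sequenced paired-end with 75 bases. According to the methods, the authors discarded sequence of Q score under 30, aligned reads to mm10 with Strand software (version 9.5) and removed duplicates. The processing notes of the submitters name mm9 and DESeq2 instead. Of 21348 symbols matched to GENCODE M21, 13.6% overlapped their GRCm38 position, so loci are positioned as deposited (mm9 per the processing notes). The authors deposited read counts without normalization, used here, and FPKM values.

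CPM, log2 fold changes (pseudocount 0.5) and the Z test on square roots of depth-scaled counts were computed on named loci. A call needs an adjusted p under 0.05 and a higher level at least 25% above the lower. Counting intervals are exact Clopper-Pearson at 95%, and those of medians are order statistics over genes. Members and the 35 lists (325 genes) were chosen with earlier results of these data known. For a gene on several loci, the locus with most hypothalamus counts was used. Named genes are list members, Csf2rb, Actb, and per class the 10 largest rises and falls among called genes that averaged 100 counts or more. Ptgds, Csf2rb2, Ahsg and Apoa1 lie outside that rule, and some genes within it are not reported here. Unnamed loci held 0.739% (AL) and 0.718% (DR) of counts.

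The Z test was run on counts simulated with counting error only and no variation between pools. It recovered 168 of 200 genes changed 2-fold, with 11 false calls among 19320 genes. edgeR's exact test was run on counts simulated with its own coefficient of variation of 0.1. By adjusted p alone it recovered 128, with 6 false calls. Each simulation met the assumption of its test, so these numbers do not give the rate of false calls in the real libraries. Alternatives were DESeq size factors (DESeq2 1.42.0), TMM factors (edgeR 4.0.16, R 4.3.3), totals without the 10 most abundant genes, a mean of at least 10 counts, a fold change of 2, edgeR exact tests with a coefficient of variation of 0.1 or an estimated dispersion, class limits of 2-fold and 8-fold, at least 1 CPM for the hippocampus level, a pseudocount of 5, and FPKM fold changes at pseudocounts of 0.1 and 1.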

Additional observations from a re-analysis of the deposited data

Results flagged for a closer look

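Genes of the lists that were called in opposite directions in the hypothalamus and the hippocampus are given with the log2 fold change of DR over AL in each region. The difference between the regions was not tested. Avp was lower in the hypothalamus (-0.82) and higher in the hippocampus (1.75), where it had 5 and 14 counts. Trh was higher in the hypothalamus (0.87) and lower in the hippocampus (-1.88, 35 and 7 counts). Zic1 was higher (1.52) and lower (-0.39, 1047 and 616 counts). Lmx1a, a factor of the ventral midbrain and choroid plexus, was higher (0.65) and lower (-0.96, 51 and 20 counts). Kcnj13, a potassium channel of the choroid plexus, was higher (1.5) and lower (-0.83), as were Igf2 (1.41 and -0.33) and Igfbp2 (1.53 and -0.40). Lypd8 and Muc2, both of colon epithelium, were lower in the hypothalamus (-4.40 and -1.71) and higher in the hippocampus (0.90 and 1.49). The choroid plexus list, of which Kcnj13 is a member, summed to 3069 CPM in AL and 1878 CPM in DR in the hippocampus, and the meningeal list, of which Igf2 is a member, to 145 and 329 CPM in the hypothalamus. These sums include the genes themselves, and the part of the tissues in them was not tested.

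Loci without a gene name were outside the main measurement. Of 10014 such loci, 7403 had a count in the hypothalamus, and 92 were called higher and 105 lower in DR (2.66%).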

How the results depend on the processing

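No paired analysis was possible because each tissue and diet has 1 library. The scaling of the libraries changed little. DESeq size factors, TMM factors and totals without the 10 most abundant genes kept the count of calls in each class within 1.5 times of the reported one, and none of the single genes that were recomputed changed sign. Among these genes, calls were lost in 42 cases, all at a fold change of 2 or in an exact test with added variation. In the lists, DESeq and TMM factors each took the calls from 1 to 0 in the endoplasmic reticulum list, from 2 to 1 in the cholesterol list, from 2 to 1 higher in the growth hormone and IGF axis and from 5 to 4 in the suprachiasmatic list. Both took lower calls from 1 to 2 in the preoptic list, TMM factors took them from 3 to 4 in the receptor list, and a mean of 10 counts or more gave 1 interferon call in place of 0. The test decided how many genes were called. At a fold change of 2, 466 genes were called (259 higher and 207 lower), with edgeR's exact test and a coefficient of variation of 0.1 there were 233 (162 and 71), and with the dispersion estimated over the 3 hypothalamus libraries without regard to diet or age (coefficient of variation 0.124) there were 164 (101 and 63). The share of calls that were higher was 61.4% as reported, 65.2% where the mean was 10 counts or more, 55.6% at a fold change of 2 and 69.5% with a coefficient of variation of 0.1. In the same order of fold change of 2, coefficient of variation of 0.1 and estimated dispersion, hippocampus-enriched calls fell from 98 to 47, 39 and 32, hypothalamus-enriched calls from 175 to 27, 27 and 9, peripheral calls from 267 to 177, 80 and 70, and calls in the remaining class from 822 to 215, 87 and 53. Calls in the regional lists fell from 61 to 24, 22 and 15, in the cell type lists from 25 to 12, 12 and 11, and in the response lists from 37 to 6, 6 and 5. With class limits of 2-fold and 8-fold, hippocampus-enriched calls were 194 and 56 with medians of 0.0958 and 0.353, and hypothalamus-enriched calls were 294 and 98 with medians of -0.0303 and -0.0909. The median of hippocampus-enriched genes was 0.0649 from FPKM with a pseudocount of 1. The median of the remaining class, 0.0135 as reported, was 0.00631 with DESeq size factors, 0.00434 with TMM factors, and -0.00716 and -0.00559 from FPKM with pseudocounts of 0.1 and 1. Leaving out the locus listed at 0 in DR, an alternative added after seeing the data, moved no count by over 1.5 times. Lone pools limit every result, since depth gives narrow counting intervals but no spread between pools of mice.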

Other observations

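Genes that peripheral organs express at least 20-fold higher than the brain showed a different order by organ. Among all genes 4.33% were higher and 2.72% lower. Of 758 such genes with their highest level in the colon, 108 were lower (14.2%) and 15 higher (1.98%) in DR. Of 402 with their highest level in epididymal fat, 41 were higher (10.2%) and 15 lower (3.73%). The higher ones included Myh11, Tpm2, Col3a1 (101, 269 and 72 counts in AL, DR and DR-AL) and the galectin Lgals1 (111, 265 and 111), which vessel walls and connective tissue express. Of 530 with their highest level in the liver, 32 were higher (6.04%) and 56 lower (10.6%), and at a fold change of 2 there were 5 and 52. The lower ones included the plasma protein genes Ahsg (59, 4 and 23 counts) and Apoa1 (90, 30 and 63), which were also called with added variation and are named here after their values were seen. Serpind1 and Serping1, protease inhibitors of plasma, were among the higher ones, at 109, 278 and 52 and at 332, 758 and 263 counts.

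Csf2rb, a cytokine receptor subunit, had 53 counts in AL against 58 in DR, with 36 in DR-AL. Its neighbouring paralog Csf2rb2, named here after its values were seen, had 33, 123 and 161 counts, a log2 fold change of 1.74 with an interval of 1.19 to 2.36. Reads of the paralogs may be split between the loci. Actb, a structural gene often used as a reference, had 24663, 26722 and 22851 counts (-0.03).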
